A study of Homo sapiens with 4 samples.

Results

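MSX1 and MSX2 are the pair of muscle segment homeobox (MSX) genes followed here, chosen by gene symbol from the deposited expression table, in which each symbol had 1 row (2 of 58365 rows). To ask how MSX expression responds when TGFβ signaling is blocked during the endothelial-to-hematopoietic transition (EHT), RNA-seq of H1, a widely used line of human embryonic stem cells (hESCs), was examined at day 8 of hematopoietic differentiation. In all groups, cells received 40 ng/ml activinA and 50 ng/ml BMP4 for 2 days, then 40 ng/ml VEGF and 50 ng/ml bFGF for 3 days, and again VEGF and bFGF for the last 3 days. During these last 3 days, the SB group (2 libraries) was given SB431542, a small molecule that blocks the type I receptors for TGFβ, activin and nodal, and the DMSO group (2 libraries) was not. The cells were unmodified H1 cells of a single line, so the libraries represent 1 genetic background, and no label states whether the replicates were separate differentiations; the p-values measure only the spread between these libraries. The study states that the sequenced cells were those positive for CD31, an endothelial surface marker, a selection that the sample labels do not mention. It singled out MSX2 from these same libraries, so the lower level of MSX2 below is a description and not independent evidence. By real-time PCR the study also reports lower MSX2 with SB431542 and higher MSX2 with TGFβ1, measurements outside these libraries.

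MSX proteins are homeodomain transcription factors of the NK-like (NKL) subclass, which act mostly as repressors and keep progenitor cells from differentiating in the limb bud, the skull, the tooth and the neural crest. Both genes are classical targets of bone morphogenetic protein (BMP) signals, which run through receptors that SB431542 spares and through SMAD1, SMAD5 and SMAD9. TGFβ and activin signals run through SMAD2 and SMAD3. In hESCs, MSX2 is known for its part in mesoderm induction.

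Both genes have the same build, a short first exon and a second exon that carries the end of the coding sequence. MSX1 (ENSG00000163132.6) lies on the plus strand of chromosome 4, from 4859666 to 4863936 on GRCh38, and MSX2 (ENSG00000120149.8) on the plus strand of chromosome 5, from 174724533 to 174730893. In GENCODE release 29, the main transcripts of MSX1 and MSX2 have 2 exons each, lengths of 1939 and 2241 bases and coding sequences of 912 and 804 bases, stop codon included. The coding sequences were identical at 65.1% of 921 aligned positions, and their parts in the second exon at 73.5% of 446. The longest run of bases shared by the main transcripts was 28. Whether other genes of that annotation overlap either locus was not tested. MSX2 has a processed pseudogene on chromosome 17 (ENSG00000229590.3, 58157028 to 58157800) that matched the MSX2 transcript at 92.1% of 773 aligned positions, with a shared run of 59 bases. With DMSO that copy was at 0 in each library, and with SB431542 it was at 0.497 and 0.0621 FPKM, so little signal was assigned to it, although how reads that fit both places were divided is not given in the sources used here.

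The designed MSX2 sequences of the study are shown because they mark which part of the gene its knockout, knockdown and PCR work addressed. The knockout guide is printed with the adjacent PAM in capitals, read from the transcript.
sgE2G1 guide: gggcgtgcgcggcttccgatTGG
shRNA-1 target: ccgttccatagacctgtgctt
shRNA-2 target: tgcaggcagcgtccatatatg
qPCR forward primer: ttaccacatcccagctcctc
qPCR reverse primer: cctgggtctctgtgaggttc
All 5 matched the coding part of exon 2, in both annotated MSX2 transcripts. The guide lies on the minus strand at chr5:174729204-174729223, starting 46 bases into exon 2. The shRNA targets lie at chr5:174729500-174729520 and chr5:174729468-174729488. The primers enclose a product of 111 bases that begins at 174729225, just past the guide. Against the main MSX1 transcript, the best ungapped match of the guide had 3 mismatches, the shRNA targets had 8 and 9, and the primers had 6 and 4.

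**Figure D1:**
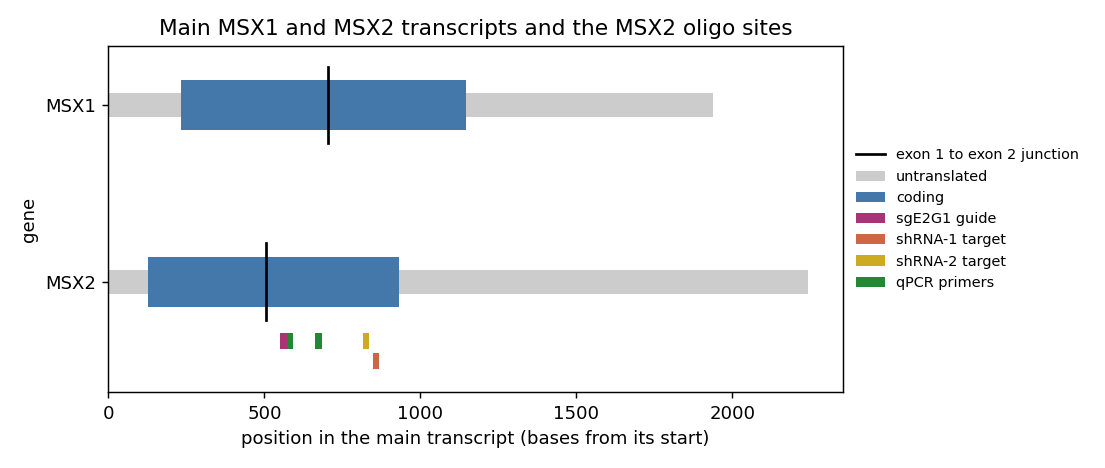
Main MSX1 and MSX2 transcripts drawn to scale, with position in bases from the transcript start on the x axis and 1 gene per row. Blue blocks are coding sequence, grey blocks are untranslated, black lines are the junction of exons 1 and 2, and the coloured marks under MSX2 are the guide, shRNA and primer sites, all of which fall in the coding part of exon 2.

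The upstream sequences are shown because both genes were lower with SB431542. The windows hold the bases from 250 to 50 before the RefSeq start (GRCh38.p14, plus strand), chr4:4859415-4859615 for MSX1 and chr5:174724332-174724532 for MSX2. Capitals mark every match, on either strand, to the searched motifs.
MSX1: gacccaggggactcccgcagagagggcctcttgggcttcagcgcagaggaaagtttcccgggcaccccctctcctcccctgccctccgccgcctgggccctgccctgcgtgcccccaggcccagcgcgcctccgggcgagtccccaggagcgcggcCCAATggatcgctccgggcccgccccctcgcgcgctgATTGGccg
MSX2: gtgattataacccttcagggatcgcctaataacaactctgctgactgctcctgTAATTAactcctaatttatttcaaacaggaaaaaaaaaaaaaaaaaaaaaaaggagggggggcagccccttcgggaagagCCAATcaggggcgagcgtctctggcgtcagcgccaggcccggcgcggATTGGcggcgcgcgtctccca
The motifs were CCAAT (the CCAAT box), CAGAC and GGCGCC (letters found in SMAD-binding elements), and TAATTA and TAATTG (homeodomain core sites), and no matches overlapped. Each window held 2 CCAAT matches, which begin 94 and 57 bases before the start in MSX1 and 117 and 70 in MSX2, and which 27.6% of 35116 RefSeq windows of the same length held at least once. TAATTA was found once, in MSX2, beginning 197 bases before the start, and in 3.76% of all windows. CAGAC (32.6% of all windows), GGCGCC (12.7%) and TAATTG (5.71%) were in neither, which says only that these letters are not in these windows. The GC content was 75.6% for MSX1 and 51.7% for MSX2. The primers of the SMAD2/3 ChIP-qPCR assay on MSX2 (2 sequences) matched neither the full RefSeq promoter window of MSX2 nor an MSX transcript. Only that window and the transcripts were searched, not the genome, so primers elsewhere at the locus would not be found. The position of the assay was therefore not determined. The study reports strong binding at the promoter in that assay, and the missing match does not bear on it. A match or its absence is a description of these letters, not of a binding site.

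Expression was given as FPKM, fragment counts scaled to transcript length and to library size. In each library, between 14183 and 14372 rows reached 1 FPKM. From the steps between the lowest values of single-exon genes, the libraries were estimated to hold 24200000 and 23500000 fragments with DMSO and 19700000 and 25900000 with SB431542. Of the 10 endothelial markers examined, 10 were tested and 0 were at 0. The CD31 gene, PECAM1, had 197 and 163 FPKM with DMSO and 182 and 153 FPKM with SB431542.

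MSX2 was lower in both SB libraries. Its level with DMSO was 4.47 and 3.00 FPKM, and with SB431542 it was 1.52 and 1.33 FPKM. Both SB values lay below both DMSO values, and the lower DMSO library was still about as far above the SB libraries as it was below the other DMSO library. The means were 3.73 ± 1.04 FPKM with DMSO and 1.43 ± 0.134 FPKM with SB431542 (SD, n = 2 each), a level 61.8% lower. On the log2(FPKM + 1) scale, which understates the change of a gene this low, the difference was -0.95 (SE 0.24, 95% interval -1.56 to -0.33), with an unadjusted limma p of 0.0111 and an adjusted p of 0.301, and so MSX2 did not pass the adjustment. The difference was -1.12 within replicate number 1 and -0.78 within number 2. The study counts MSX2 among the transcription factors that were significantly lower with SB431542 in its RNA-seq. It does not give the criterion for that call, so the call and the adjusted limma p cannot be compared directly.

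MSX1 was lower as well, from a higher level and by a smaller step. Its values were 22.0 and 16.3 FPKM with DMSO and 14.1 and 11.0 FPKM with SB431542. The groups did not overlap, but SB replicate 1 came close to DMSO replicate 2. The means were 19.1 ± 4.04 and 12.5 ± 2.23 FPKM (SD, n = 2 each), a level 34.4% lower with SB431542. The log2(FPKM + 1) difference was -0.57 (SE 0.23, 95% interval -1.17 to 0.03), with an unadjusted limma p of 0.0594 and an adjusted p of 0.531. It was -0.60 within number 1 and -0.53 within number 2, and -0.36 without DMSO replicate 1. MSX1 therefore passed neither threshold, and its difference was of the order of the 0.41 and 0.34 between the replicates of each group on that scale.

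Of the 14909 tested genes, which had a mean of at least 1 FPKM in at least 1 group, 0.134% passed the adjusted limma threshold, 0.107% with lower expression under SB431542, and neither MSX gene was among them. At an unadjusted p under 0.05, 5.16% of the tested genes were lower with SB431542, MSX2 among them. In 16.0% of the tested genes the groups did not overlap and SB was lower, as in both MSX genes. Ordered from the most negative difference, MSX2 was at place 377 and MSX1 at place 1006. Taking the replicate number as a block, a pairing that the labels do not establish, 4.99% of the tested genes were called lower, both MSX genes among them. Each gene passed the filter on low values in either group, so that the difference did not decide whether they were tested. Bulk values cannot tell fewer MSX-expressing cells from less MSX RNA per cell.

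The estimated depth allowed the counting error of these values to be set beside the replicate spread. On the length of the main transcript, the MSX2 values correspond to about 213 and 138 fragments with DMSO and about 59 and 68 with SB431542. The exact 95% Poisson intervals, which cover counting error only, were 3.89 to 5.11 and 2.52 to 3.54 FPKM for the DMSO libraries, and 1.16 to 1.96 and 1.03 to 1.69 FPKM for the SB libraries. The SB libraries thus agreed within counting error, whereas the DMSO libraries differed by more than it, and neither DMSO interval reached an SB interval. For MSX1, with about 887, 631, 459 and 470 fragments in the same order, the intervals were 20.5 to 23.5, 15.0 to 17.6, 12.8 to 15.5 and 9.98 to 12.0 FPKM. Those of DMSO replicate 2 and SB replicate 1 overlapped (15.0 against 15.5 FPKM), and the replicates of each group differed by more than counting error. For MSX1, and for MSX2 with DMSO, the spread between replicates was thus larger than the depth alone would give.

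**Figure D2:**
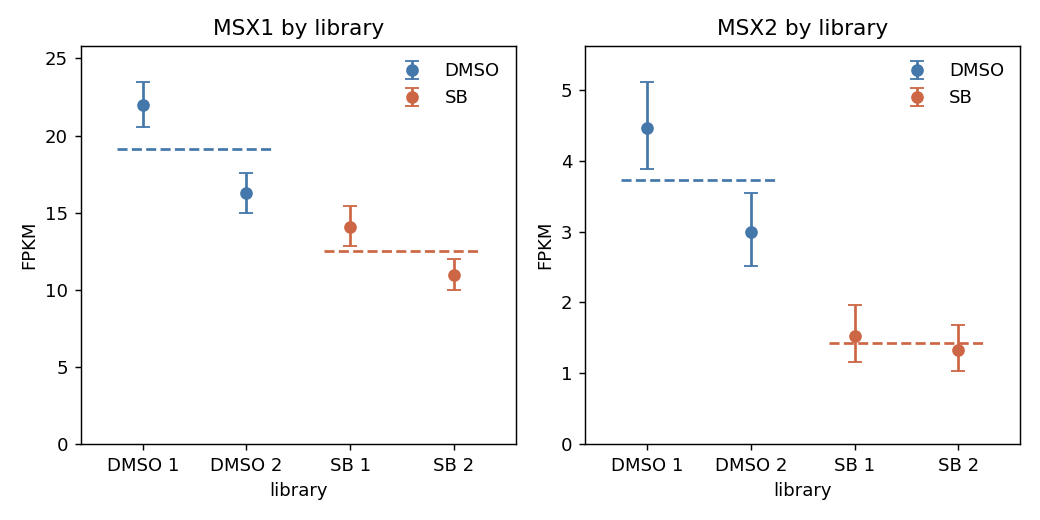
FPKM of MSX1 (left) and MSX2 (right) on linear axes from 0 in the 2 DMSO (blue) and 2 SB (orange) libraries on the x axis. Bars are exact 95% Poisson intervals on estimated fragments and dashed lines are group means (19.1 and 12.5 FPKM for MSX1, 3.73 and 1.43 FPKM for MSX2); each SB point lies below each DMSO point in both panels.

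The paralogs were compared within each library, which FPKM allows because the values are per length. MSX1 was the more abundant in every library, 4.92 and 5.42 times MSX2 with DMSO and 9.27 and 8.22 times MSX2 with SB431542. MSX2 thus made up 16.9% and 15.6% of the summed MSX level with DMSO and 9.74% and 10.8% with SB431542. In this share both SB libraries were below both DMSO libraries. The sum of both genes was 26.4 and 19.3 FPKM with DMSO and 15.6 and 12.3 FPKM with SB431542. The log2(FPKM + 1) difference between MSX2 and MSX1 was -2.09 ± 0.026 with DMSO and -2.47 ± 0.16 with SB431542 (SD, n = 2 each), a shift of -0.38, and it was -0.76 on log2 FPKM with no pseudocount. An exact two-sided permutation test of this shift gave p = 0.333, the smallest value that 2 libraries against 2 allow, so that its outcome says nothing for or against a difference in response. The shift was larger than the SD within either group, and so was that on log2 FPKM, where the SDs were 0.098 and 0.12. As FPKM ratios, MSX2 with SB431542 was 0.341 and 0.444 of its DMSO level in numbers 1 and 2, and MSX1 was 0.642 and 0.674.

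Among the 45 NKL relatives of the MSX genes that were listed, 7 were tested, and the other 38 reached at most 0.586 FPKM in any library. Together with MSX1 and MSX2 this gave 9 expressed genes of the subclass. HHEX, a factor of early endothelium, blood and endoderm, had the highest level, at 77.8 and 74.5 FPKM with DMSO and 85.0 and 76.3 FPKM with SB431542. NKX2-5, a cardiac factor, was next with DMSO at 45.3 and 21.9 FPKM, and stood at 10.4 and 5.23 FPKM with SB431542 (log2 difference -1.95, limma adjusted p 0.274). MSX1 was the third in both groups. With DMSO its range just reached that of NKX2-5 above and did not reach that of EMX1, the fourth gene. With SB431542 its values lay within the range of EMX1 above and its lower value met the upper value of HLX below. MSX2 was the sixth of the 9 with DMSO, where its values overlapped those of HLX above and LBX2 below. With SB431542 it was the ninth, at 1.52 and 1.33 FPKM, by the mean, and its range overlapped that of NKX2-3 at 1.63 and 1.47 FPKM and lay within that of LBX2, which was below MSX2 in SB replicate 2.

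Of the tested relatives, NKX2-5 alone was lower in both SB libraries than in both DMSO libraries. HLX, a factor of hematopoietic and mesenchymal cells, was at 5.74 and 3.72 FPKM with DMSO and at 11.0 and 7.69 FPKM with SB431542. NKX2-3, a factor of visceral mesoderm and endothelium, was at 0.410 and 0.376 FPKM and at 1.63 and 1.47 FPKM. VAX1, known from the ventral forebrain, was at 1.43 and 0.839 FPKM and at 3.47 and 3.06 FPKM. These 3 genes were higher in both SB libraries without overlap, with log2 differences of 0.85, 0.87 and 1.01 and limma adjusted p of 0.413, 0.298 and 0.269. For HHEX, EMX1 and LBX2 the groups overlapped, and LBX2, at 2.81 and 3.59 FPKM with DMSO, was at 5.84 and 0.649 FPKM with SB431542, a log2 difference of -0.32 that became 0.71 without SB replicate 2. Of the 7 relatives, 0 passed the limma adjustment, with 3 higher (4.8% of all tested genes) and 1 lower at an unadjusted p under 0.05, and NKX2-3 passed the filter on low values only through the SB group, where it is high. Their median log2 difference was 0.49, against 0.04 over all tested genes, but it was 0.083 without DMSO replicate 2, 0.14 without SB replicate 1, 0.29 under the filter of 5 FPKM and -0.021 with no filter. Of all 45 listed, tested or not, 10 were lower (16.0% of all tested genes) and 5 higher (21.5%) without overlap. The 38 that were not tested reached at most 0.586 FPKM in any library, and 12 were at 0 in all.

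**Figure D3:**
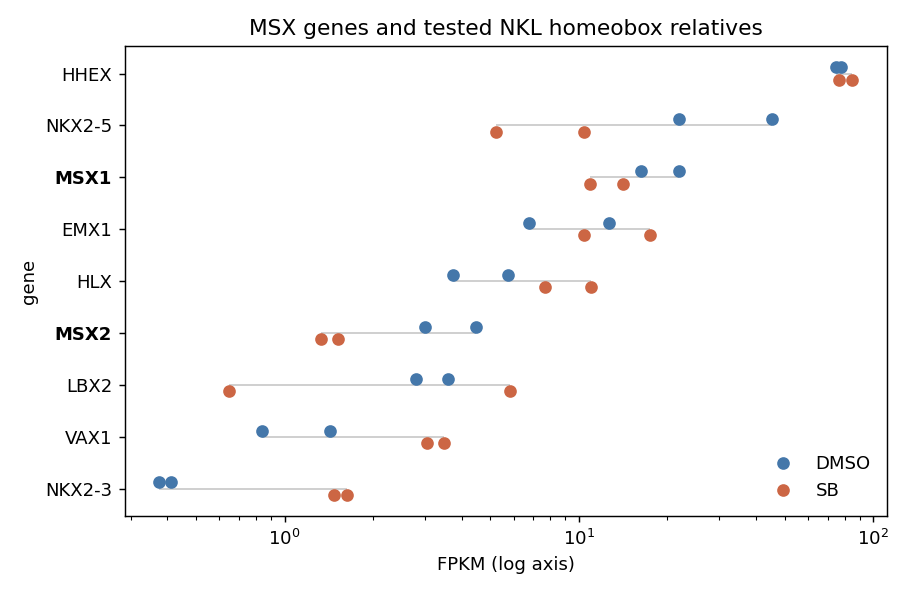
FPKM on a log axis for MSX1, MSX2 and the 7 tested NKL relatives, 1 gene per row ordered by the DMSO mean, with 1 point per library (DMSO blue, SB orange) and a grey line over the range. The SB points of MSX1, MSX2 and NKX2-5 lie left of their DMSO points, and those of HLX, VAX1 and NKX2-3 lie right of them.

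The signals that induce MSX genes were followed from ligands to responses. Among the ligands, BMP4, which induces MSX genes in many tissues and is itself described as an MSX1 target, was at 17.7 and 14.4 FPKM with DMSO and at 5.49 and 5.04 FPKM with SB431542 (log2 difference -1.44, limma adjusted p 0.0983). BMP6 was at 7.13 and 3.33 FPKM and at 2.06 and 1.08 FPKM (-1.23, limma adjusted p 0.402). TGFB2 was at 8.96 and 7.58 FPKM and at 3.51 and 1.05 FPKM (-1.60, limma adjusted p 0.308). In each of the 3 ligands both SB libraries were below both DMSO libraries. Among the receptors, BMPR2, the type II BMP receptor, was at 9.26 and 12.9 FPKM with DMSO and at 5.91 and 6.92 FPKM with SB431542 (-0.69, limma adjusted p 0.411). Of the 22 tested ligands, receptors and SMADs, 0 passed the limma adjustment, and 5 were lower (5.16% of all tested genes) and 0 higher at an unadjusted p under 0.05. The groups did not overlap in 8 with lower values (16.0% of all tested genes) and 2 with higher values (21.5%), and the median log2 difference was -0.14. BMP2, BMP7 and SMAD9 passed the filter only through the DMSO group.

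Most of the listed genes that BMP signals induce, as they do the MSX genes, had lower values with SB431542. Whether BMP signaling itself was lower was not tested. Of 13 tested BMP response genes, 11 were lower without overlap between the groups (16.0% of all tested genes) and 0 were higher, with a median log2 difference of -0.84, and 9 were lower at an unadjusted p under 0.05 (5.16% of all tested genes). SMAD9 and NOG passed the filter only through the DMSO group, and of all 15 listed genes, tested or not, 12 were lower without overlap. None of them (0 genes) passed the limma adjustment. HAND1, a factor of extraembryonic mesoderm and heart, was at 11.6 and 11.1 FPKM with DMSO and at 2.34 and 1.98 FPKM with SB431542 (-1.97, limma adjusted p 0.0646). ID1, an inhibitor of bHLH factors, was at 470.2 and 505 FPKM and at 179 and 187 FPKM (-1.41, limma adjusted p 0.0803). ID3 (-0.87, limma adjusted p 0.187) and the inhibitory SMAD7 (-2.05, limma adjusted p 0.193) were lower without overlap. MSX2, at -0.95, was close to the median of these genes on this scale, but with a pseudocount of 0.1 it was at -1.30 and the median at -0.88. MSX1, at -0.57, was nearer to 0 than the median.

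SMAD2/3 response genes, the direct readout of the receptors that SB431542 blocks, had a median log2 difference of -1.41 over 16 tested genes. In 10 of them SB was lower without overlap (16.0% of all tested genes) and in 2 higher (21.5%), and 9 were lower (5.16%) and 1 higher (4.8%) at an unadjusted p under 0.05. CTGF passed the filter only through the DMSO group and LEFTY1 only through the SB group, and the counts of non-overlapping genes were 10 and 2 over all 18 listed genes too. TGFBI, a TGFβ-induced matrix protein, was the 1 gene of this list that passed the limma adjustment, falling from 29.7 and 31.0 FPKM to 4.10 and 4.93 FPKM (-2.51, adjusted p 0.0365). Without any single library its limma adjusted p lay between 0.137 and 0.182, and without the filter on low values it was 0.3005, with the difference at -2.40 or below throughout. COL1A1, FN1 and CTGF had differences of -2.46, -2.10 and -2.05, with limma adjusted p of 0.0646, 0.0646 and 0.0753. Both MSX differences were nearer to 0 than the median of this list, except that with no filter the median was -0.89, and MSX2 at -0.95 lay beyond it.

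Proteins that bind MSX factors or act as their corepressors were also listed. Of 12 tested partners, 0 were called at an adjusted or an unadjusted limma p under 0.05, and the median log2 difference was -0.03. The 4 with the smallest p were TLE2, a Groucho corepressor (-1.64), EHMT2, a histone H3 lysine methyltransferase (0.30, and -0.016 without DMSO replicate 2), TLE3 (-0.24) and the general transcription factor subunit GTF2F1 (0.25), with limma adjusted p from 0.760 to 0.865. TLE2 was at 81.0 and 12.8 FPKM with DMSO and at 22.3 and 4.01 FPKM with SB431542, so that its replicates differed more than its groups, while its difference was -1.82 within number 1 and -1.46 within number 2 and passed with the replicate number as a block (limma adjusted p 0.0069).

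Genes described in other tissues as MSX targets, some repressed and some activated, mostly had lower values. Of 12 tested, 9 were lower without overlap (16.0% of all tested genes) and 0 higher, the median log2 difference was -0.71, and 8 were lower at an unadjusted p under 0.05 (5.16% of all tested genes), while 0 passed the limma adjustment. ALPL and SOX9 passed the filter only through the DMSO group, and of all 20 listed genes 10 were lower and 1 higher without overlap. SNAI2, a factor of epithelial-to-mesenchymal transition, was at 8.27 and 8.58 FPKM with DMSO and at 3.52 and 4.36 FPKM with SB431542 (-0.94, limma adjusted p 0.208). CDKN1A, the cell cycle inhibitor p21, was at 97.2 and 89.5 FPKM and at 56.9 and 55.9 FPKM (-0.72, limma adjusted p 0.245). BMP4 and COL1A1, given above, belong to this list too.

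At the loci of 4 hematopoietic factors the study placed primers for MSX2 ChIP-qPCR, and it reports strong binding there. It also reports higher RUNX1, GATA2 and TAL1 in CD31-positive cells after MSX2 deletion, which these libraries do not cover. With SB431542 the differences of these 4 genes were of the opposite sign to that of MSX2. RUNX1, required for EHT, was at 35.3 and 33.6 FPKM with DMSO and at 69.8 and 53.6 FPKM with SB431542 (0.81, limma adjusted p 0.280). GATA1, an erythroid and megakaryocyte factor, was at 42.8 and 40.9 FPKM and at 63.0 and 62.7 FPKM (0.58, limma adjusted p 0.322). TAL1, a factor of blood and endothelial specification, was at 45.6 and 38.0 FPKM and at 56.4 and 51.8 FPKM (0.37, limma adjusted p 0.622). In these 3 genes both SB libraries were above both DMSO libraries, which held for 21.5% of all tested genes. GATA2 overlapped, at 188 and 110 FPKM with DMSO and 221 and 129 FPKM with SB431542, and its difference of 0.23 became -0.15 without DMSO replicate 2 or without SB replicate 1. None of the 4 (0 genes) passed the adjustment, and 2 were higher at an unadjusted limma p under 0.05 (4.8% of all tested genes). RUNX1 and GATA1 are also among the hematopoietic markers summed below. No correlation between MSX2 and these genes was computed over the 4 libraries.

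**Figure D4:**
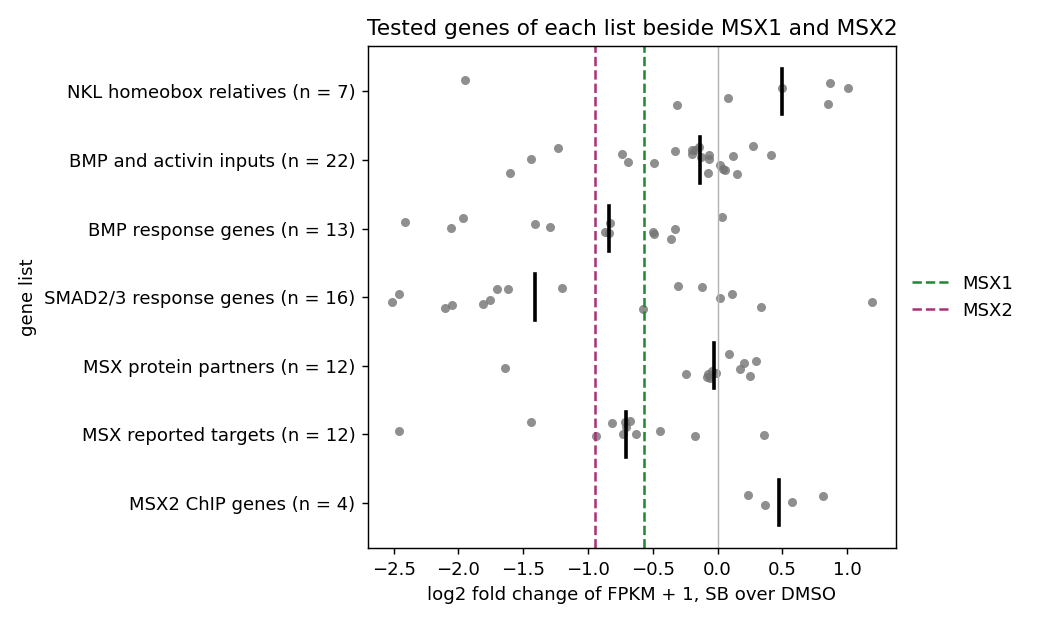
Log2 difference of FPKM + 1, SB over DMSO, on the x axis for each tested gene (grey point) of 7 lists, 1 list per row, with the list median as a black bar and MSX1 (-0.57) and MSX2 (-0.95) as dashed lines. BMP response genes (median -0.84), SMAD2/3 response genes (-1.41) and reported MSX targets (-0.71) lie mostly left of 0, MSX partners (-0.03) lie around it, and the 4 ChIP genes lie right of it.

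The genes whose profiles over the 4 libraries came nearest to the MSX genes were found by the Euclidean distance between log2(FPKM + 1) values centred on each gene. Nearest to MSX2 were DBH-AS1 (distance 0.064), ADAMTS2, a procollagen protease (0.070), MSI1, an RNA-binding protein of progenitor cells (0.072), ERBB3, a neuregulin receptor (0.083), and CDKN2B, a cell cycle inhibitor induced by TGFβ (0.083). This nearness holds for the pseudocount of 1: with 0.1, the difference of MSX2 was -1.30, and those of these genes were -1.55, -2.004, -1.38, -1.20 and -2.57 in the same order. CDKN2B was the farthest then, at 1.29 and 0.768 FPKM with DMSO and 0.13 and 0.049 FPKM with SB431542. DBH-AS1, ADAMTS2 and CDKN2B passed the filter on low values only through the DMSO group, where they are high. ERBB3 had almost the level of MSX2 as well, at 4.66 and 2.99 FPKM with DMSO and 1.73 and 1.42 FPKM with SB431542. Nearest to MSX1 were MFGE8, a secreted protein that bridges apoptotic cells to phagocytes (0.027), the immediate-early gene IER5 (0.033), the matrix protein SPARC (0.044), SERINC2 (0.052) and IL11RA, the receptor of interleukin 11 (0.052). SPARC, at 787 and 578 FPKM with DMSO and 508 and 392 FPKM with SB431542, kept the proportions of MSX1 at a far higher level. MSX1 and MSX2 were not each other's nearest genes: at a distance of 0.41, MSX1 was at place 323 in the order from MSX2 and MSX2 at place 1070 in the order from MSX1. Of the 7 NKL relatives, HHEX was the nearest to both, at 0.71 from MSX1 and 1.06 from MSX2, followed by EMX1 and LBX2 for MSX1 and by NKX2-5 and EMX1 for MSX2.

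The markers of some cell types other than endothelium were lower in sum with SB431542, as the MSX genes were. Summed over the 10 mesenchymal markers, FPKM ranged from 269 to 321 with DMSO and from 119 to 129 with SB431542. COL1A1 and COL3A1 made up most of that sum with DMSO, and COL1A1 and TAGLN are also among the SMAD2/3 response genes. The 7 neural crest markers, of a lineage that expresses both MSX genes in the embryo, summed to between 22.3 and 34.2 FPKM with DMSO. With SB431542 their sum was between 9.14 and 10.5 FPKM. NGFR was the largest part of the DMSO sum, at 22.3 and 9.70 FPKM, and was at 3.04 and 1.09 FPKM with SB431542. TFAP2A overlapped, at 3.56 and 3.85 FPKM with DMSO and 3.70 and 3.64 FPKM with SB431542. FOXD3 was listed at 0 throughout, SOX10, PAX3 and TFAP2B stayed under 1 FPKM, and 3 of the 7 genes were tested. The 10 endoderm and liver markers summed to between 160.4 and 176 FPKM with DMSO and between 13.4 and 13.7 FPKM with SB431542, and the 8 epithelial markers to between 253 and 257 FPKM and between 117 and 124 FPKM. Of all listed markers, tested or not, 8 of 10 mesenchymal, 8 of 10 endoderm and liver, 7 of 8 epithelial and 2 of 7 neural crest markers were lower with SB431542 without overlap, as were 16.0% of all tested genes. Among them PRRX1, APOB, FOXA2, HNF4A and ESRP1 were at a mean of 1 FPKM or more only with DMSO. The part of these cells in the lower MSX levels was not tested.

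Other marker sums differed less or were higher. The 10 endothelial markers summed to between 1633 and 1857 FPKM with DMSO and between 1625 and 1814 FPKM with SB431542. Within that sum CLDN5, a tight junction protein, was at 121 and 79.4 FPKM with DMSO and at 231 and 177 FPKM with SB431542 (1.04, limma adjusted p 0.318), and CDH5, the endothelial cadherin, at 273 and 246 FPKM and at 224 and 202.1 FPKM (-0.28, limma adjusted p 0.710). The 8 amnion-like markers, of cells that express MSX2 after BMP4, summed to between 40.6 and 60.3 FPKM and between 37.6 and 56.2 FPKM. Most of that sum was GATA3, at 51.6 and 31.7 FPKM with DMSO and 49.5 and 30.2 FPKM with SB431542. Of the 8, 4 were tested, and 3 were lower (16.0% of all tested genes) and 2 higher (21.5%) without overlap. The 9 cardiac markers summed to between 128 and 135 FPKM and between 117 and 130 FPKM. Of all 9, tested or not, 7 were lower (16.0% of all tested genes) and 2 higher (21.5%) without overlap. MYL4 was among the higher, at 61.5 and 79.5 FPKM with DMSO and 91.8 and 111 FPKM with SB431542. TNNT2, TBX5 and MYH6 stayed under 1 FPKM, and MYL7 and ACTN2 passed the filter only through the DMSO group. The 10 hematopoietic markers summed to between 432 and 450 FPKM with DMSO and between 605 and 661 FPKM with SB431542, and the 6 pluripotency markers to between 70.8 and 90.9 FPKM and between 94.1 and 116 FPKM. Most of the latter rise was in LIN28A, at 42.6 and 51.0 FPKM with DMSO and 65.2 and 76.0 FPKM with SB431542. DPPA4 overlapped, at 26.7 and 37.7 FPKM and at 27.0 and 36.7 FPKM. Of the 6, 3 were higher (21.5% of all tested genes) and 1 lower (16.0%) without overlap, and SOX2 and NANOG stayed under 1 FPKM.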

How the data were processed

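RNA was sequenced from 4 libraries of H1-derived cells (2 DMSO, 2 SB), grouped by their titles. The authors deposited FPKM values, 1 column per library, in 58365 rows. The submitters' processing notes name BWA, Bowtie, RSEM and the build hg19, without roles. The loci in the table lie on GRCh38, and 95.5% of the row identifiers are in GENCODE release 29, so GRCh38 is used here. Strand use and scaling between libraries are not given in the sources used here.

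Values were transformed to log2(FPKM + 1). Rows with a mean of at least 1 FPKM in at least 1 group were compared with limma 3.58.1 (empirical Bayes with trend, R 4.3.3, tested on simulated data), two-sided, with Benjamini-Hochberg adjustment over all tested rows and a threshold of 0.05. The table holds no counts, so the tests planned for counts were not run. Fragments per library were estimated by regressing the reciprocal of 1-fragment FPKM values on length for single-exon genes of 1000 to 8000 bases. Between 96.8% and 97.5% of low values then lay within 0.05 of a whole fragment. For a symbol with several rows, the row with the highest mean was used.

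The members and gene lists were chosen with earlier results of these data known. Named are both MSX genes, tested NKL relatives, the 4 ChIP genes, PECAM1, up to 4 genes of smallest unadjusted p per list of inputs, responses, partners and targets, and the 5 nearest profiles per MSX gene with the 3 nearest NKL relatives. The pseudogene, AC005962.1 in the table, the markers named singly and the genes named for passing the filter through 1 group were chosen after their values were seen. All 20 housekeeping genes examined were above 0. Alternatives were another pseudocount (0.1), no filter, a filter of 5 FPKM in 2 libraries, quantile and upper-quartile scaling, no trend, the replicate number as a block, and each library left out.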

Additional observations from a re-analysis of the deposited data

How the results depend on the processing

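MSX1 and MSX2 were lower with SB431542 under every alternative that could be run. Leaving out single libraries gave log2 differences from -1.17 to -0.72 for MSX2 and from -0.77 to -0.36 for MSX1, the smallest for both without DMSO replicate 1, with adjusted limma p from 0.291 to 0.835 and from 0.519 to 1.0. Under the other alternatives without the block, adjusted p ran from 0.257 to 0.453 for MSX2 and from 0.505 to 0.626 for MSX1, and the pseudocount of 0.1 gave -1.30 for MSX2. MSX2 could not be tested under the stricter filter. With the replicate number as a block, MSX2 (-0.95, adjusted p 0.0406) and MSX1 (-0.57, adjusted p 0.0283) passed, as did 1564 genes (10.5%) against 20 without it. The labels do not establish that the numbers pair the libraries, although the deviations of same-numbered libraries from their group means correlated at 0.53 over 14909 genes. The shift of MSX2 against MSX1 stayed negative, at -0.49 to -0.27 without single libraries and -0.70 with the pseudocount of 0.1. No filter left 0 genes called (2739 at an unadjusted p under 0.05), and leaving out single libraries left between 0 (without DMSO replicate 1, with 1168 at an unadjusted p under 0.05) and 14. Direction reversed without single libraries for LBX2 (between -1.34 and 0.71), GATA2 (between -0.15 and 0.62), PECAM1 (between -0.24 and 0.029) and EHMT2 (between -0.016 and 0.61), and under no other alternative among the named genes. The cause of these reversals was not tested. The 2 libraries per group limit the precision of both MSX genes, and the fragment count also limits that of MSX2 with SB431542.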
